A study of Mus musculus with 8 samples.

Results

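Keratins are the subunits of the intermediate filaments of epithelial cells, and claudins are the membrane proteins that form the strands of tight junctions. Both gene families were followed here through spleen RNA of miR-155 knockout and wild-type mice. The members are all genes whose name in the array tables begins with Krt or Cldn and a number, which leaves out the keratin-associated Krtap genes. The rule gave 64 genes, 42 keratins and 22 claudins, of 24171 named genes, and they hold 83 of the 44170 features (a feature is 1 transcript on the array, read by 3 probes). A gene with several features is represented by the feature with the highest mean over the 8 arrays.

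The study set 4 spleens labelled miR-155 knockout against 4 labelled wildtype, each on 1 NimbleGen array of 1 colour. The knockout animals Mim1-5 and Mim1-6 are labelled female and Mim2-2 and Mim2-3 male, and among the wild types WT-1 and WT-3 are labelled female and WT-2 and WT-4 male. No treatment is named, and strain, age, the knockout allele and the meaning of the prefixes Mim1 and Mim2 are not given in the sources used here. The comparison asks how spleen transcripts differ without miR-155, a microRNA of immune cells.

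A keratin filament is built from pairs of 1 type I and 1 type II keratin, and each kind of epithelium uses its own pairs. Krt8 and Krt18 pair in simple, single-layered epithelia, Krt5 and Krt14 in the basal layer of stratified epithelia, Krt1 and Krt10 in the layers above it, and a further set of keratins makes up the hair shaft and its root sheath. The filaments are anchored at desmosomes, the spot contacts between epithelial cells. Claudins either seal the space between neighbouring cells or line it with ion-selective channels, and they bind scaffold proteins of the zonula occludens family. The spleen is mainly lymphoid tissue, red pulp and vessels. Its parenchyma has no epithelial lining, and its capsule is covered by mesothelium, a keratin-bearing cell layer.

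Intensities below are log2 of the authors' RMA values, so a step of 1 is a doubling. The entry for 5000 random probes, which stands in for background, lay between log2 4.94 and 5.24 on the 8 arrays. Lying above it is not a detection test. The arrays Mim2-2 and Mim2-3 stood apart: they correlated with the other 6 at r = 0.811 to 0.877 over all features, and those 6 with each other at 0.911 to 0.943. The correlation of Mim2-2 with Mim2-3 was 0.874, within their range with the other 6, so they do not form a close pair. Among the knockouts, Mim2 and male cannot be told apart. The sex-linked genes did not separate the labelled sexes. Xist, the transcript of the inactive X chromosome, read 9.52 to 10.91 on arrays labelled female and 8.35 to 11.10 on arrays labelled male. The Y-linked gene Ddx3y read 6.82 to 8.83 and 6.26 to 8.78, and by genotype 8.39 to 8.83 on the knockout and 6.26 to 7.33 on the wild-type arrays. Eif2s3y, also Y-linked, read 7.37 to 8.68 on arrays labelled female and 7.15 to 9.39 on arrays labelled male. By genotype it read 8.60 to 9.39 on the knockout and 7.15 to 8.26 on the wild-type arrays. BIC, the transcript from which miR-155 is cut, read 5.28 to 7.51 on the knockout and 4.84 to 5.63 on the wild-type arrays, but its probes may lie outside what was deleted, so it checks nothing. The defining markers of the labelled tissue were measured: all 8 B cell, all 7 T cell and all 6 red pulp macrophage genes on the lists used lay above the random probes on every array. Genes that do not belong to spleen cells were measured as well, and the source of their transcripts was not tested. On every array 8 of 10 luminal epithelial, 5 of 8 milk protein and 5 of 9 exocrine pancreas genes also lay above the random probes. The share over all 24171 genes was 65.5%, which the milk protein and pancreas counts do not exceed. Linear intensities of the luminal list summed to 20200 to 25300 in the wild types, and of the milk list to 75100 to 77600. The B cell list summed to 4090 to 7090 there, and the exocrine pancreas list to 605 to 830. These sums are given for comparison with the knockout further on. They are not ranked against each other, because the lists differ in probes and gene number. Since luminal and milk protein genes, foreign to the spleen, were bright, the keratin and claudin values below cannot be assigned to cells of the spleen. In RNA of whole tissue, fewer cells of a type and less RNA per cell cannot be told apart.

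Of the 64 family members, 30 lay above the random probes on all 8 arrays, 33 on some of them and 1, Cldn20, on none. The share of 46.9% compares with 65.5% of all 24171 genes. On single arrays 46 to 57 members were above. With a threshold 1 higher on the log2 scale, 17 members stayed above on all 8 arrays and 10 were above on none. By role, 4 of 7 simple epithelial keratins, 2 of 4 basal keratins, 7 of 13 suprabasal and mucosal keratins and 6 of 18 hair keratins were above on every array, as were 4 of 10 sealing claudins, 2 of 4 channel-forming claudins, 1 of the pair Cldn5 and Cldn11, and 4 of 6 other claudins.

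**Figure D1:**
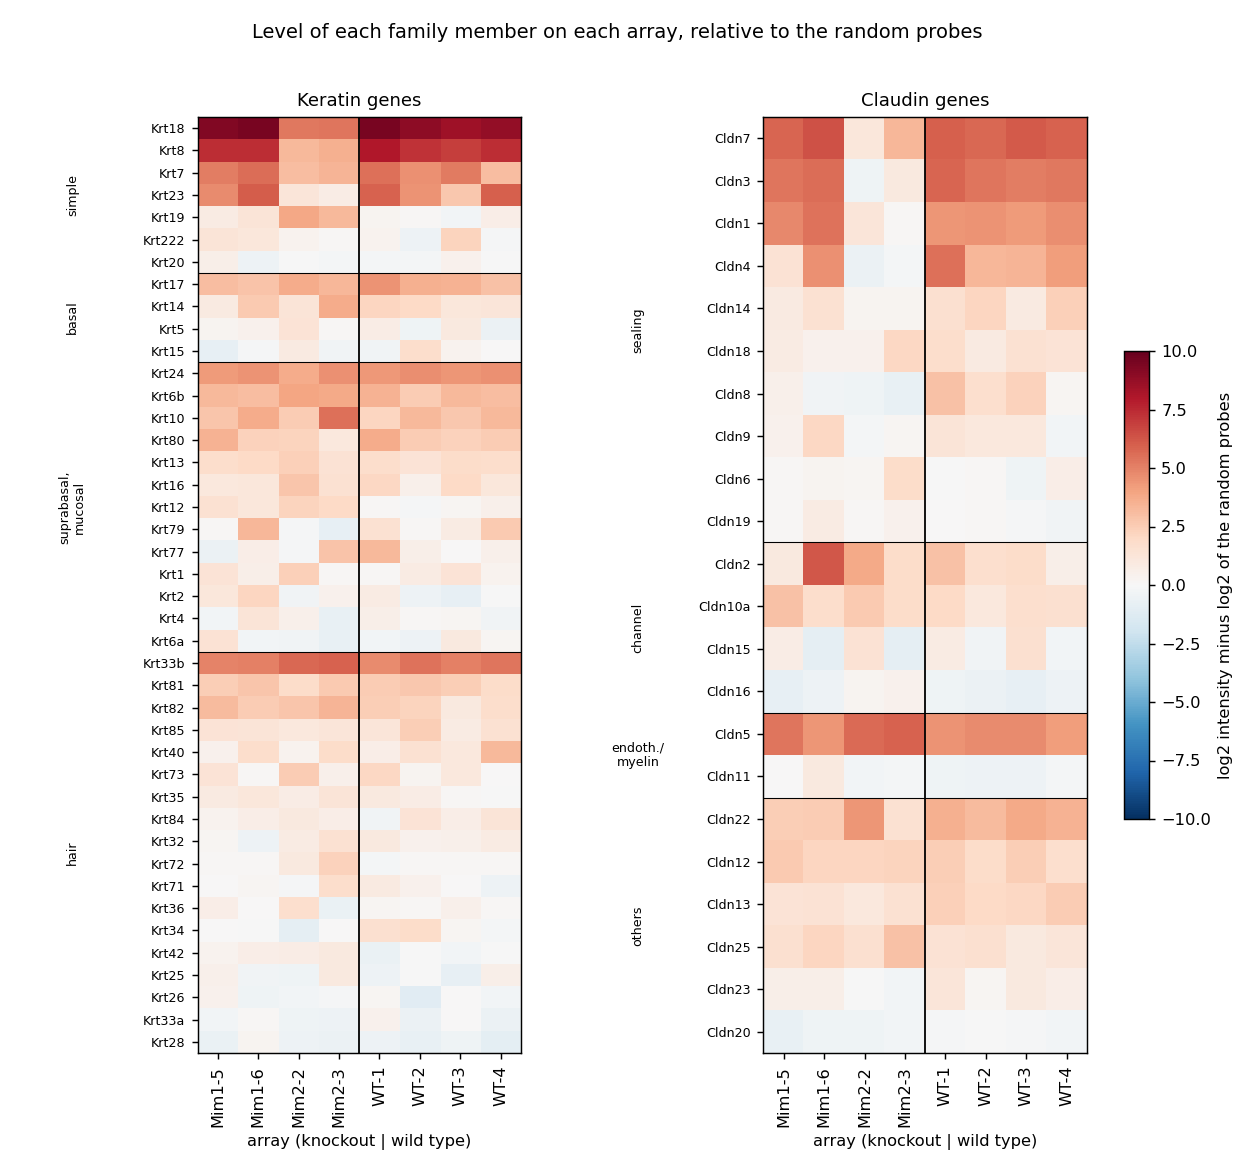
Each row is 1 gene and each column 1 array; colour gives the log2 intensity minus the log2 of the random probes of that array, red above and blue below. The rows of Krt8, Krt18, Krt23, Cldn1, Cldn3, Cldn4 and Cldn7 are paler on Mim2-2 and Mim2-3 than on the other 6 arrays, and Krt19 is redder there.

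In knockout against wild type, no family member passed the test. limma with labelled sex as a term called 0 of 44170 features (0.00%) at an adjusted p under 0.05, and adjusted p-values of the members ran from 0.262 to 0.999. At an unadjusted p under 0.05, 5 members read higher in the knockout (Krt12, Krt19, Krt42, Krt82 and Cldn5), which is 7.81% of 64 beside 7.70% of all genes. Another 7 read lower (Cldn8, Cldn4, Krt8, Cldn3, Cldn13, Cldn7 and Cldn14), 10.9% beside 6.62%. The groups did not overlap for 5 members higher in the knockout (Krt12, Krt19, Krt42, Krt82 and Cldn11), 7.81% beside 5.27% of genes, and for 1 lower, Cldn13, 1.56% beside 2.56%. The median difference was 0.25 over the keratins and -0.29 over the claudins, and 0.06 over all genes. Leaving out 1 array moved the higher count to 8 without Mim2-2, and the lower count to 3 without Mim2-2, WT-2 or WT-4, 4 without Mim2-3 and 11 without WT-3, and the keratin median to 0.02 without Mim2-2. With only the 2 Mim1 arrays set against the 4 wild types these medians were 0.11, 0.02 and 0.02. The sign of a difference often depended on the feature. In the 16 members with several features, 10 of 19 features not used had the opposite sign to the feature used, and 9 the same.

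Among the simple epithelial keratins, Krt8, Krt18 and Krt23 were split within the knockout group. Krt8, the type II partner of the pair, read 12.35 on Mim1-5, 12.32 on Mim1-6, 8.42 on Mim2-2 and 8.80 on Mim2-3, against 13.00, 12.28, 11.91 and 12.43 on WT-1 to WT-4. Krt18, its type I partner, read 14.22, 14.40, 10.46 and 10.58 on the same knockout arrays and 14.52, 13.99, 13.47 and 13.80 on the wild types. Both genes were low on Mim2-2 and Mim2-3 alone, and the Mim1 arrays lay within the wild-type range. A second Krt8 feature gave the same order of groups, with 8.19 and 8.96 on the Mim2 arrays and 11.45 to 13.11 on the other 6. The knockout minus wild type difference over all 8 arrays was -1.93 ± 0.68 (SE) for Krt8 and -1.53 ± 0.68 for Krt18 (limma, adjusted p = 0.304 and 0.363; exact permutation p = 0.2 and 0.371, n = 4 a group). With the Mim1 arrays alone against the 4 wild types it was -0.07 and 0.37. In build MM9 their features lie at 101827139 to 101834737 and 101858684 to 101862451 on chromosome 15. This is the end of the type II keratin cluster, whose 19 members run from 101180001 to 101862451, and Krt18 is the type I gene that lies there and not in the chromosome 11 cluster of 23 members.

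The sequences upstream of 4 members that were low together on the Mim2 arrays are shown because they were the only members called in 2 alternative fits of the interaction described further on. They are the 250 bases before the annotated transcript start, from RefSeq on GRCm38.p6, written 5′ to 3′ on the gene's strand: Krt8 at chr15:102004343-102004592 (minus strand), Krt18 at chr15:102027966-102028215 (plus), Cldn1 at chr16:26371840-26372089 (minus) and Cldn3 at chr5:134985964-134986213 (plus). Capitals mark matches on either strand to 5 motifs. The TATA box was searched as TATAAA. The motif of SP1 was searched as GGGCGG. The motif of AP-1 was searched as TGANTCA. For grainyhead factors the letters were AACNNGTT. For epithelial ETS factors they were AGGAAGT.
Krt8: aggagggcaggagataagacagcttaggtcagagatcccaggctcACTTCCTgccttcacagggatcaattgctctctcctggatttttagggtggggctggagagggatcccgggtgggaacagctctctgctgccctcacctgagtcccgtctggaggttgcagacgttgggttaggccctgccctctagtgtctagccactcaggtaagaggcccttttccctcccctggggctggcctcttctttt
Krt18: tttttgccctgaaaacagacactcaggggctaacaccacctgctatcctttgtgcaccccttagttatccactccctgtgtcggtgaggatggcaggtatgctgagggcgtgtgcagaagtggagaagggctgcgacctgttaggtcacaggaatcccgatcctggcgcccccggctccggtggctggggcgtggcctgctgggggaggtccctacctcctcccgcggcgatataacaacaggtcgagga
Cldn1: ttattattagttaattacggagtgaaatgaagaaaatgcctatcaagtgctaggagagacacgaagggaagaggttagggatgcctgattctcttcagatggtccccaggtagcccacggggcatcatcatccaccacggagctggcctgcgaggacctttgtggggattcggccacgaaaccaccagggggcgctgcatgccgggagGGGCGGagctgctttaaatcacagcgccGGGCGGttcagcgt
Cldn3: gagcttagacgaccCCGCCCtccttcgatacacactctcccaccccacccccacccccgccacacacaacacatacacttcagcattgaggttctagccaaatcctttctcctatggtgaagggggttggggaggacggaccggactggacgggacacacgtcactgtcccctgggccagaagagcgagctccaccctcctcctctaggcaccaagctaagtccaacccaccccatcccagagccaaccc
The Krt8 stretch holds 1 ETS match, the Cldn1 stretch 2 SP1 matches and the Cldn3 stretch 1 SP1 match, with no overlaps, and the Krt18 stretch holds none of the 5 motifs. Of all 32851 RefSeq promoters of this length, 32.7% hold the SP1 letters, 7.69% the ETS letters, 12.4% the TATA letters, 6.75% the AP-1 letters and 3.64% the grainyhead letters. Of 55 promoters listed for 46 member genes, 13 hold the SP1, 3 the ETS, 15 the TATA, 4 the AP-1 and 1 the grainyhead letters. A match describes the letters and shows no binding.

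The other simple keratins did not follow a single pattern. Krt23, a type I keratin of glandular epithelia, read 9.64, 11, 6.4 and 5.95 on Mim1-5, Mim1-6, Mim2-2 and Mim2-3 and 10.90, 9.55, 7.69 and 11 on WT-1 to WT-4. Krt7, a type II keratin of glandular ducts, read 10.07, 10.53, 8.26 and 8.63 against 10.52, 9.59, 10.23 and 8.10. The Mim2 arrays were the lowest for Krt23, whereas for Krt7 the wild type WT-4 was lower still and the groups overlapped throughout. Their differences were -1.54 ± 1.08 and -0.24 ± 0.37 (limma, adjusted p = 0.547 and 0.801), and 0.53 and 0.68 for the Mim1 arrays alone against the wild types. Krt19, a type I keratin of ducts and mesothelium that lacks a tail domain, went the other way. It read 5.77, 6.24, 9.05 and 8.5 on the knockout arrays and 5.29, 5.18, 4.76 and 5.71 on the wild types. All 4 knockout arrays lay above all 4 wild types, the Mim2 arrays by the most. The difference was 2.16 ± 0.49 (limma, adjusted p = 0.262; exact permutation p = 0.0286, the smallest that 70 arrangements allow), and 0.77 for the Mim1 arrays alone. WT-3 lay below its random probes, so the size of this difference is not exact. Krt20, a keratin of gut epithelium, read 4.41 to 5.51, around the random probes, and Krt222 read 4.52 to 7.22.

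Of the basal layer keratins, Krt14 and Krt17 lay above the random probes on all 8 arrays, and Krt5 and Krt15 on only some. Krt17, which is also induced in activated keratinocytes, read 7.76 to 8.86 in the knockout and 7.96 to 9.47 in the wild type. Krt14 read 5.87 to 8.92 and 6.14 to 7.13. Its partner Krt5 read 5.22 to 6.49 and 4.41 to 5.94, and Krt15, a keratin of basal and hair bulge cells, 4.10 to 6.03 and 4.64 to 6.81. The groups overlapped for all 4 genes, and none passed at an unadjusted p under 0.05. Krt14, Krt16 and Krt17 have near-identical stretches, and their probes may share signal.

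Among the suprabasal and mucosal keratins, Krt12 separated the groups. It is the type I keratin of the corneal epithelium. The gene read 6.44, 6.08, 7.40 and 7.25 on Mim1-5, Mim1-6, Mim2-2 and Mim2-3 and 5.11, 4.96, 5.21 and 5.55 on WT-1 to WT-4. Every knockout array was above every wild type, and WT-2 was below its random probes. The difference of 1.59 ± 0.32 was the largest relative to its error among the members (limma, adjusted p = 0.262; exact permutation p = 0.0286), and it was 1.06 for the Mim1 arrays alone (adjusted p = 0.795). Krt10, the type I keratin of the suprabasal epidermis, read 7.69, 8.68, 7.71 and 10.77 against 7.12, 8.28, 7.72 and 8.24, with Mim2-3 the highest. Its partner Krt1 read 5.34 to 7.51 and 5.10 to 6.34. Krt24 had the narrowest range of this group, 8.84 to 9.77 and 9.36 to 9.67. Krt80 read 6.32 to 8.45 and 7.33 to 8.69, and its 4 features disagreed in sign. Krt6b, a keratin of wounded and mucosal epithelium, read 8.15, 8, 9.12 and 9.02 against 8.49, 7.55, 8.24 and 8.11, with both Mim2 arrays highest. Its feature spans 101506959 to 101524679 on chromosome 15 and takes in the neighbouring Krt6a, so the paralogs cannot be separated on it. Krt2, Krt4, Krt6a, Krt77 and Krt79 lay above the random probes on only some arrays, and their groups overlapped, as did those of Krt13 and Krt16.

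The hair keratins were mostly near the random probes, with 12 of 18 above them on only some arrays. Krt33b, a type I keratin of the hair cortex, read 9.88, 9.95, 10.91 and 11.10 in the knockout and 9.69, 10.44, 10.05 and 10.37 in the wild type. Both Mim2 arrays were the highest, and a second feature followed with 10.44 and 10.35 there and 9.02 to 10.08 on the other 6. The difference over 8 arrays was 0.32 ± 0.27 (limma, adjusted p = 0.615). Its close paralogs Krt33a and Krt34 read 4.46 to 5.40 and 4.22 to 6.89. Krt82, a type II keratin of the hair cuticle, read 8.11, 7.44, 7.94 and 8.60 against 7.42, 7.29, 5.99 and 6.78, without overlap. Its difference was 1.15 ± 0.39 (limma, adjusted p = 0.295; exact permutation p = 0.0286), and 0.91 for the Mim1 arrays alone. Krt42, a type I gene beside Krt17, read 5.29, 5.61, 5.92 and 6.20 against 4.35, 5.02, 4.70 and 5.01. All 4 wild types were at or below their random probes, so the size of the difference is not exact (limma, adjusted p = 0.266; measured means 5.76 and 4.77). With values under the random probes set to that level, the estimate was 0.74, or 1.67-fold. A second Krt42 feature differed by 0.54, with the groups overlapping.

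**Figure D2:**
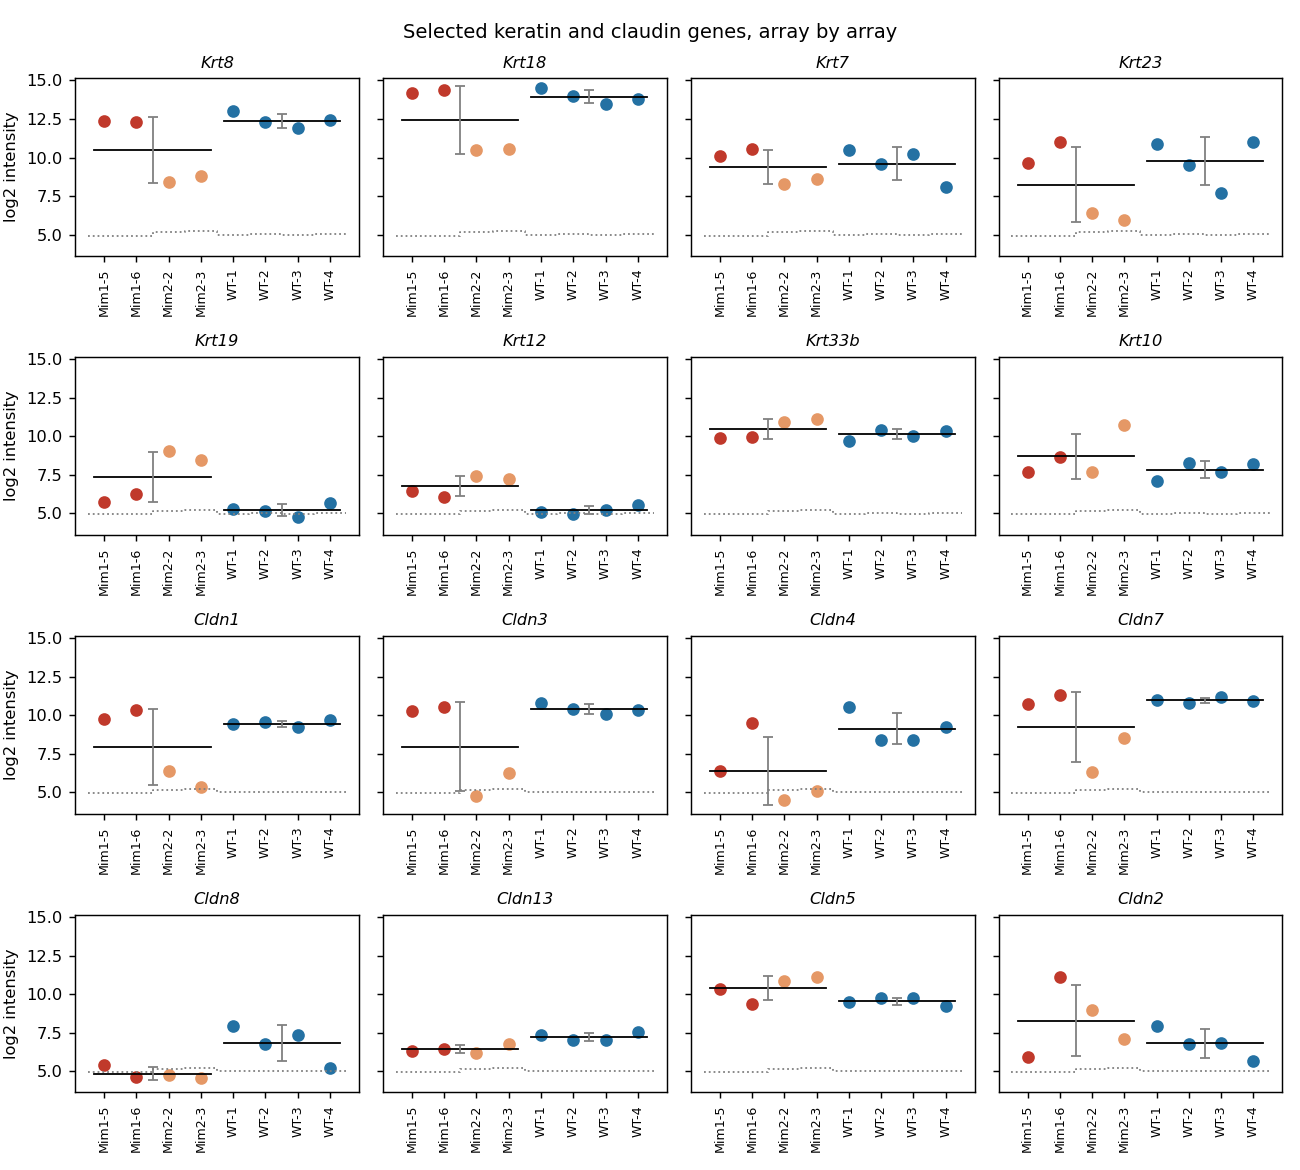
Log2 intensity of 16 members on each of the 8 arrays: Mim1 knockouts in red, Mim2 knockouts in orange and wild types in blue; black lines are group means, grey bars 1 SD, dotted lines the random probes. Mim2-2 and Mim2-3 sit apart from Mim1-5 and Mim1-6 for Krt8, Krt18, Krt23, Krt19, Cldn1 and Cldn3, whereas the 4 knockouts lie together for Cldn13.

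Of 10 sealing claudins, 5 (Cldn1, Cldn3, Cldn4, Cldn7 and Cldn14) were lowest on both Mim2 arrays, as Krt8 and Krt18 were, beside 14.4% of all genes. Cldn6, Cldn8, Cldn9, Cldn18 and Cldn19 were not. Cldn3, a barrier claudin of glandular and gut epithelia, read 10.27, 10.52, 4.75 and 6.25 on Mim1-5, Mim1-6, Mim2-2 and Mim2-3, and 10.82, 10.43, 10.09 and 10.31 on WT-1 to WT-4. Cldn1, which seals the epidermal barrier, read 9.74, 10.33, 6.36 and 5.37 against 9.42, 9.54, 9.22 and 9.67. Cldn7, a claudin that also lies along the basolateral membrane, read 10.76, 11.32, 6.32 and 8.53 against 10.98, 10.79, 11.16 and 10.93. In each of these genes the Mim2 arrays were the lowest and the Mim1 arrays lay near or above the wild types, and on Mim2-2 Cldn3 was below its random probes. Cldn4, found beside Cldn3 on chromosome 5, read 6.41, 9.5, 4.53 and 5.07 against 10.52, 8.37, 8.39 and 9.23. Here the Mim2 arrays were below their random probes and Mim1-5 was low as well. A second Cldn7 feature read 4.57 on Mim2-2 and 8.48 on Mim2-3, where only Mim2-2 left the range of the others, 8.41 to 9.44. The differences over 8 arrays were -2.47 ± 0.88 for Cldn3, -1.51 ± 0.80 for Cldn1, -1.73 ± 0.72 for Cldn7 and -2.75 ± 0.81 for Cldn4 (limma, adjusted p = 0.307, 0.432, 0.344 and 0.273). With the Mim1 arrays alone against the wild types they were -0.02, 0.57, 0.08 and -1.17. Because of the values below the random probes, the sizes over 8 arrays are not exact for Cldn3 and Cldn4. With such values set to the level of the random probes, they were -2.37 for Cldn3 and -2.55 for Cldn4.

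Cldn8, a claudin of kidney and gland ducts, was low in the whole knockout group. It read 5.43, 4.62, 4.75 and 4.53 on the knockout arrays, of which only Mim1-5 lay above its random probes, and 7.91, 6.75, 7.34 and 5.19 on WT-1 to WT-4. WT-4 lay within the knockout range, so the groups overlapped. The difference was -1.97 ± 0.45 (limma, adjusted p = 0.262; exact permutation p = 0.0571), and -1.77 for the Mim1 arrays alone. Since 3 of 4 knockout arrays lay below their random probes, its size is not exact, and it was -1.61 with values under the random probes set to that level. Cldn18, a claudin of stomach and lung, read 5.34 to 7.31 and 5.96 to 6.75. Of all 10 sealing claudins, 5 read lower at an unadjusted p under 0.05 (Cldn3, Cldn4, Cldn7, Cldn8 and Cldn14), beside 6.62% of all genes, and 0 higher, beside 7.70%. Their median difference was -1.24 over 8 arrays and 0.02 for the Mim1 arrays alone.

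The channel-forming and vascular claudins were not lowest on both Mim2 arrays. Cldn5 and Cldn16 were highest on both, Cldn16 near the random probes. Cldn2, a cation channel of leaky epithelia, read 5.93, 11.13, 8.97 and 7.09 on the knockout arrays and 7.96, 6.76, 6.83 and 5.64 on the wild types. The high value belongs to Mim1-6 alone, and the difference of 1.48 ± 0.99 had an adjusted p of 0.524 in limma. Cldn10, listed in the files as Cldn10a, read 6.66 to 7.89 and 6.09 to 7. Cldn5, the main claudin of endothelium, read 10.31, 9.39, 10.83 and 11.14 against 9.48, 9.74, 9.72 and 9.24. The Mim2 arrays were the highest, Mim1-6 lay within the wild-type range, and the difference of 0.88 ± 0.37 (limma, adjusted p = 0.35) was 0.31 for the Mim1 arrays alone. Beside it, all 8 endothelial markers were above the random probes on every array. Their summed linear intensity was 8080 to 14000 in the knockout and 6570 to 8800 in the wild type. Beside 16.3% of all genes, 5 of 8 endothelial markers were highest on both Mim2 arrays. Their part in the Cldn5 value was not tested. Cldn11, the claudin of myelin and the testis, read 4.97, 5.93, 4.91 and 5.01 against 4.53, 4.55, 4.49 and 4.87, close to the random probes except on Mim1-6. The groups did not overlap, but only 2 knockout arrays and 0 wild types exceeded the random probes, so no size is given for this difference (limma, adjusted p = 0.44).

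Cldn13, a claudin gene of rodents that red cell precursors express, was lower on all 4 knockout arrays than on any wild type. It read 6.34, 6.42, 6.19 and 6.79 against 7.37, 7.01, 7.04 and 7.55. The Mim2 arrays did not stand apart from the Mim1 arrays here. The difference was -0.81 ± 0.29 (limma, adjusted p = 0.307; exact permutation p = 0.0286), and -0.86 for the Mim1 arrays alone. The 7 erythroid markers had a median difference of -0.55 and summed linear intensities of 4020 to 11200 in the knockout and 7320 to 12300 in the wild type. At an unadjusted p under 0.05, 1 of 7, Epor, read lower, beside 6.62% of all genes. Without the Mim2 arrays, in the fit with the sex term, the list's median difference was -1.18. In that fit 4 of 7 read lower, beside 3.41% of all genes. The part of the erythroid markers in the Cldn13 value was not tested. Cldn12 read 7.09 to 7.59 and 6.71 to 7.46. Its second feature differed by -1.12 (unadjusted p = 0.00618), against 0.24 for the first, so the features of this gene disagree. Cldn22 read 7.41, 7.47, 9.60 and 6.80 against 8.58, 8.23, 8.82 and 8.5. The groups overlapped, since Mim2-2 was the highest array, and the other knockouts lay below every wild type. On a second feature Mim2-2 was again the highest, at 8.52, but Mim1-6 at 7.85 lay above WT-1 at 7.80. That feature differed by -0.23 (limma, unadjusted p = 0.513).

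**Figure D3:**
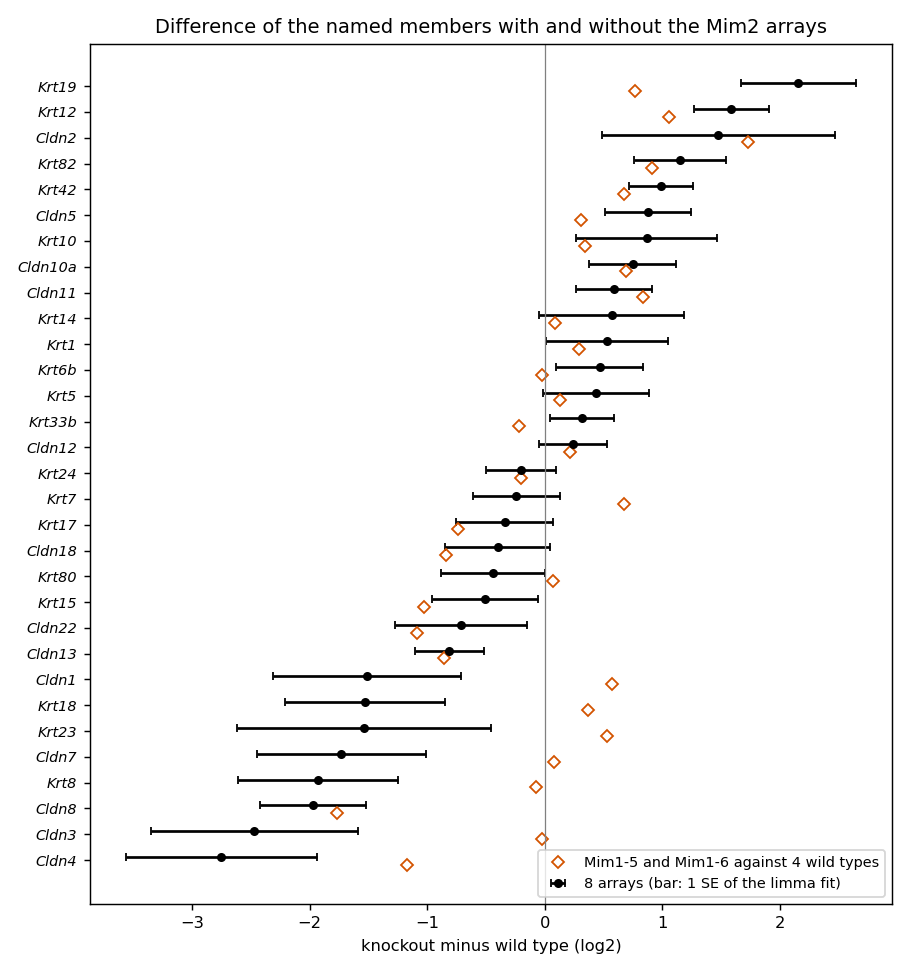
Knockout minus wild type on the log2 scale for the 31 named members: black points are the limma estimate over 8 arrays with 1 SE, open diamonds the mean of Mim1-5 and Mim1-6 minus the mean of the 4 wild types. When the Mim2 arrays are left out, Krt18, Krt23, Krt7, Krt80, Cldn1 and Cldn7 move from below 0 to above it and Krt33b and Krt6b the other way, whereas Krt12, Cldn13 and Cldn8 stay on their side.

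With both Mim2 arrays left out, the unadjusted counts were small. Against the 4 wild types, with no sex term, 3 members read higher (Krt12, Krt2 and Cldn11, beside 3.14% of all genes) and 5 lower (Cldn22, Cldn13, Cldn18, Cldn8 and Krt32, beside 2.75%). With the sex term, which sets the Mim1 arrays against the 2 wild types labelled female, 4 read higher (Krt12, Krt2, Krt42 and Krt19, beside 2.76%) and 4 lower (Cldn8, Cldn22, Cldn18 and Krt16, beside 3.41%). None passed after adjustment in limma, where the lowest adjusted p of a member was 0.795 without the sex term and 0.801 with it. Krt2, Krt16 and Krt32 are named after their values were seen.

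How far the Mim2 arrays departed from the rest was set against the same count over all genes. Both Mim2 arrays were below the other 6 in 10 members, 15.6% beside 14.4% of all genes, and above them in 9 members, 14.1% beside 16.3%. These shares are near the background. The 10 low members are Krt8, Krt18, Krt23, Krt79, Cldn1, Cldn3, Cldn4, Cldn7, Cldn14 and Cldn23, and the 9 high members are Krt19, Krt12, Krt6b, Krt32, Krt33b, Krt42, Krt72, Cldn5 and Cldn16.

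The difference between both pairs, male minus female in the genotype effect, was tested as an interaction, which here also sets Mim2 against Mim1. limma called 0 of 44170 features (0.00%). At an unadjusted p under 0.05, 6 members were positive (Krt16, Krt19, Krt5, Krt6b, Krt32 and Krt72, beside 5.93% of all genes) and 7 negative (Cldn1, Cldn3, Krt18, Krt8, Cldn7, Krt23 and Cldn14, beside 7.63%). The interaction was -4.45 ± 0.63 for Cldn1, -4.81 ± 0.77 for Cldn3, -3.69 ± 0.61 for Krt18 and -3.62 ± 0.63 for Krt8, each with an adjusted p of 0.162. With limma's trend and robust options these 4 members were called, at adjusted p = 0.0124, 0.014, 0.00844 and 0.0124, among 578 features (1.31%). Restricted to the 21856 features of the deposited series table, the test called the same 4, at adjusted p = 0.0414, 0.0433, 0.0433 and 0.0439, among 311 (1.42%). In these 4 genes the knockout minus wild type difference was between -0.12 and 0.72 in the labelled females and between -4.87 and -3.37 in the labelled males. For Krt19 the interaction was 2.35 ± 0.60 (limma, adjusted p = 0.198), with 0.98 in the labelled females and 3.33 in the labelled males.

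**Figure D4:**
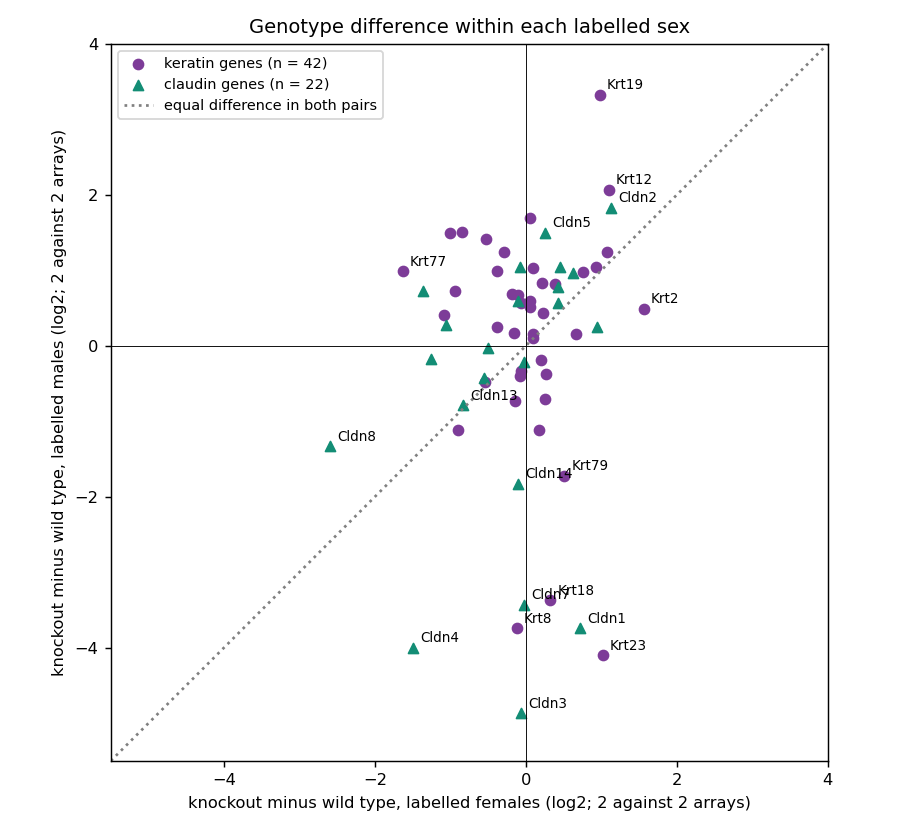
Each point is 1 member: the knockout minus wild type difference on the log2 scale in arrays labelled female (horizontal axis) against that in arrays labelled male (vertical axis), 2 against 2 arrays each. Krt8, Krt18, Cldn1, Cldn3, Cldn7 and Krt23 lie between -3.37 and -4.87 on the vertical axis and near or above 0 on the horizontal one; Cldn13 lies on the line of equal difference.

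The partners of both families were read from lists of the tight junction and the desmosome. Of 21 tight junction genes measured, 13 were lowest on both Mim2 arrays, beside 14.4% of all genes. At an unadjusted p under 0.05, 5 read lower in the knockout (Tjp3, Cgnl1, Pard3, Magi3 and Lsr), beside 6.62% of all genes, and 2 higher (Jam3 and Patj), beside 7.70%, with 0 called. Tjp3, the scaffold ZO-3, read 10.10, 10.52, 7.40 and 7.14 on the knockout arrays and 11.05, 9.65, 9.99 and 10.75 on the wild types. Lsr, the receptor that organises contacts of 3 cells, read 10.20, 11, 8.38 and 7.57 against 10.92, 10.82, 10.96 and 11.03. Ocln (occludin) read 7.76, 7.92, 6.45 and 6.66 against 7.86, 7.92, 8.13 and 7.01. In all 3 genes both Mim2 arrays were below the other 6. Tjp1, the scaffold ZO-1 that endothelium also carries, read 7.68 to 8.12 and 7.89 to 8.45. The list's median difference was -0.87, and -0.11 without the Mim2 arrays in the fit with the sex term.

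Of 20 desmosome and keratin-linker genes, 17 were measured and 10 were lowest on both Mim2 arrays, beside 14.4% of all genes. At an unadjusted p under 0.05, 6 read lower, beside 6.62%, and 0 higher, beside 7.70%, with 0 called. Evpl (envoplakin), a linker of keratin to the cell border, read 8.88, 8.01, 5.95 and 6.50 against 9.95, 9.32, 8.88 and 9.44. Its difference was -2.07 ± 0.50 (limma, adjusted p = 0.262). Dsp (desmoplakin), which ties keratin filaments to the desmosome, read 8.39, 8.74, 6.82 and 7.21 against 8.55, 9.15, 8.42 and 8.87, low on the Mim2 arrays alone. The list's median difference was -0.77, and 0.01 without the Mim2 arrays.

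**Figure D5:**
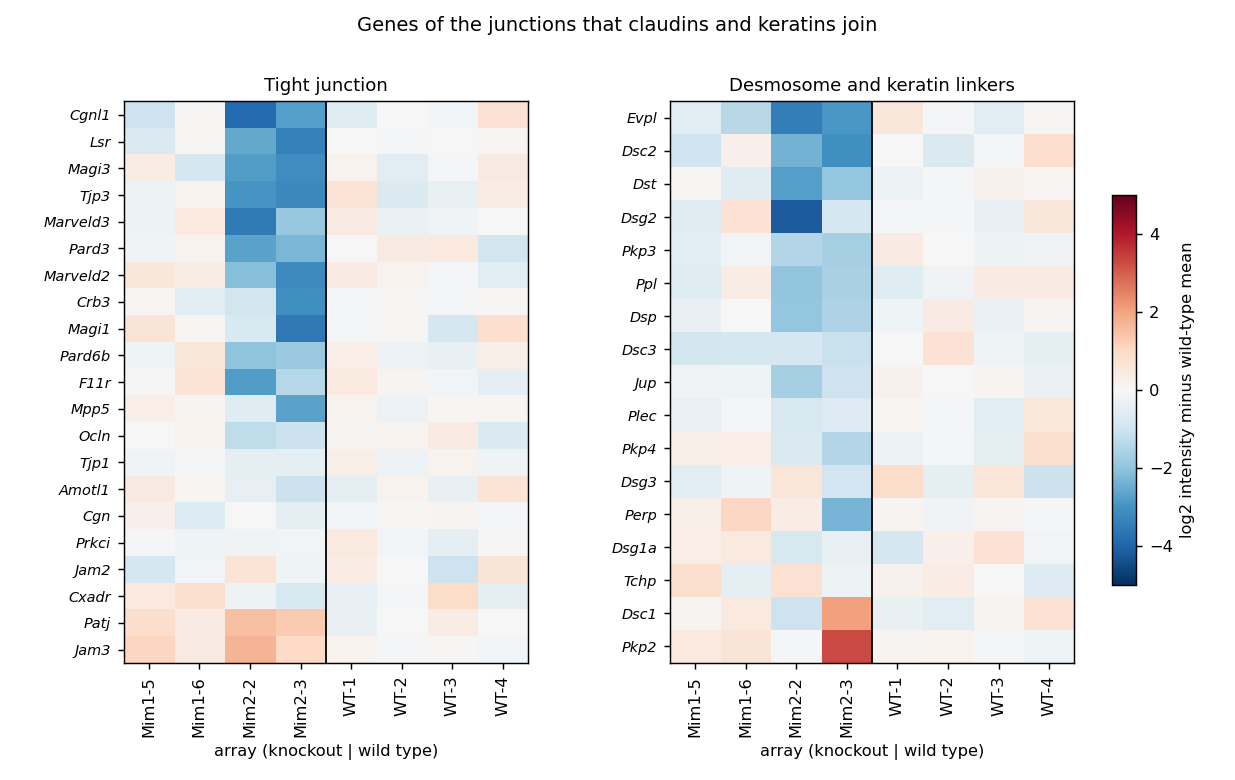
Log2 intensity of 21 tight junction genes (left) and 17 desmosome and keratin-linker genes (right) on each array, minus the gene's mean over the 4 wild types; blue is lower. Most rows are blue on Mim2-2 and Mim2-3 and pale on Mim1-5 and Mim1-6; Jam3 and Patj are red on the knockouts, and Pkp2 and Dsc1 on Mim2-3.

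Lists of marker genes were read beside the members. All 10 luminal epithelial genes were measured, and 8 were above the random probes on all 8 arrays (Foxa1 was above on 1 array only). Beside 14.4% of all genes, 8 of the 10 luminal genes were lowest on both Mim2 arrays. Their summed linear intensity was 3420 to 21100 in the knockout, and their median difference was -1.08, and -0.15 without the Mim2 arrays in the fit with the sex term. Epcam, a surface protein of simple epithelia, read 13.27, 13.11, 10.26 and 11.24 against 13.39, 13.18, 13.55 and 13.49, and Elf5, a transcription factor of secretory alveoli, 11.48, 11.40, 7.60 and 8.11 against 11.80, 11.48, 11.46 and 12.09. Of the 10 luminal genes, 8 had a negative difference. The other 2, Foxa1 and Esr1, went the other way, by 0.64 and 0.41, and Foxa1 was highest on both Mim2 arrays. The 8 milk protein genes summed to 4610 to 46400 in the knockout. At an unadjusted p under 0.05, 6 read lower, beside 6.62% of all genes, with 0 called. The milk protein genes did not follow the division between Mim1 and Mim2: 1 of 8 was lowest on both Mim2 arrays, beside 14.4% of all genes. The list's median difference was -2.50 over 8 arrays and -2.28 without the Mim2 arrays in the fit with the sex term. In that fit 6 read lower too, beside 3.41% of all genes. The 8 B cell genes summed to 10600 to 18500 in the knockout, with a median difference of 1.02, and 0.45 without the Mim2 arrays. The part of these cell types in the keratin and claudin values was not tested.

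Sums over different lists rest on different probes and numbers of genes and are compared only between genotypes. The 5 basal or myoepithelial genes measured summed to 2830 to 5990 in the knockout and 2270 to 2880 in the wild type. They did not move together: Acta2, Myh11 and Mylk differed by 0.69, 1.23 and 0.69, but Trp63 and Oxtr by -0.38 and -1.44. The 9 epidermal genes summed to 592 to 1070 and 640 to 926, the 3 hair follicle genes to 102 to 356 and 101 to 317, and the 5 mesothelial genes to 348 to 771 and 295 to 413, ranges that overlap between the genotypes. The 9 exocrine pancreas genes summed to 2800 to 5800 in the knockout and 605 to 830 in the wild type. All 9 read higher at an unadjusted p under 0.05, beside 7.70% of all genes, with 0 called. Lists of kidney, liver, intestine, lung, stomach and myelin genes summed to at most 1140 on any array, and of these only Tff1, a stomach gene, was at or below the random probes on all 8. Their part in the keratin and claudin values was likewise not tested.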

How the data were processed

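Spleen RNA of 8 mice was read on NimbleGen arrays with the dye Cy3, per the labels. The authors deposited a linear intensity per feature and array, made with RMA per the submitters' processing notes (a method of background correction, normalization between arrays and probe summary; no version named). The deposited standard error score per feature entered no test. Per the file headers, positions are of build MM9. Values were put on a log2 scale with no further normalization, since the deposited values are normalized. Gene names are those of the files: 63 of 64 members matched the RefSeq table by gene number, and 2284 features carry no name. The series table holds 23 member genes, equal to the array files within a relative tolerance of 1e-05.

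Differences were tested with limma 3.58.1 in R 4.3.3 over all 44170 features, two-sided, with Benjamini-Hochberg adjustment and a threshold of 0.05, first with genotype and labelled sex, then with their interaction. Single members were also tested by an exact two-sided permutation of the 8 arrays. The fit was tested on simulated data. Each array was taken as 1 animal, as the series design text describes separate spleens, and the number of arrays limits the precision. Members, gene lists and the rule for named members (the 10 with the highest mean per family, the 5 with the smallest p per direction and a list of partner keratins and tissue claudins) were chosen with earlier results of these data known. Alternatives covered the covariate, normalization, dim features, variance model, array weights, floor, source of values, feature per gene and arrays left out. No slide or scan block was run, as the tables used here name none. Promoters came from RefSeq on GRCm38.p6 and were joined to the members by symbol, not by position; 46 member genes have one. One gene of the tight junction list is not reported here.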

Additional observations from a re-analysis of the deposited data

Results flagged for a closer look

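Within each genotype, the highest and lowest array of the 31 named members were checked for a gap from the other 3 that is large against the whole range of 4 (Dixon's critical value), and 3 of 62 groups met this. Chance gives about 1 in 20. Krt5 stood at 6.49 on Mim2-2, above the other 3 knockouts. Cldn11 stood at 5.93 on Mim1-6, above the other 3 knockouts, and at 4.87 on WT-4, above the other 3 wild types. Apart from Mim1-6, where the random probes read 4.94, the Cldn11 values lie near or below the random probes.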

How the results depend on the processing

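In knockout against wild type, 0 members were called under every alternative run. The count of members higher at an unadjusted p under 0.05, 5 as reported, was 2 with the features of the series table alone and 3 without Mim2-2 and Mim2-3 and without a sex term; leaving out single arrays gave 4 to 8, the 8 without Mim2-2. The count of lower members, 7 as reported, was 4 with no sex term and 4 without Mim2-2 and Mim2-3; leaving out single arrays gave 3 to 11 (3 without Mim2-2, WT-2 or WT-4, 4 without Mim2-3, 11 without WT-3). Members called for the interaction, 0 as reported, numbered 4 with trend and robust variance, 4 with the features of the series table and 0 with single arrays left out. The keratin median of 0.25 was -0.20 with the series table features, 0.06 without the Mim2 arrays and 0.02 to 0.30 with single arrays left out, 0.02 being without Mim2-2, and 0.13 with the floor at the random probes and 0.13 with the mean of all features of a gene. The claudin median of -0.29 was -0.76 with the series table features, -0.08 with the floor at the random probes, -0.07 without the Mim2 arrays, 0.02 without them and without a sex term, and -0.40 to -0.21 with single arrays left out. Members above the random probes on all arrays numbered 17, and on none 10, with a threshold 1 higher; with single arrays left out, 30 to 32 were above on all, and on none there were 2 without the Mim2 arrays and 1 to 2 with single arrays left out. Without the Mim2 arrays the differences of Krt18, Cldn1 and Krt23 turned to 0.32, 0.72 and 1.02 with the sex term and to 0.37, 0.57 and 0.53 without it, and that of Cldn7 to 0.08 without it. The series table keeps fewer features; the cause of the other changes was not tested. Leaving out the Mim2 arrays without a sex term, and the interactions of single members under each setting, were added after the data were seen.

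No paired analysis was possible because the animal numbers of the 2 genotypes do not refer to shared animals, litters or days. Values near the random probes, where 33 members lie on some arrays, carry no order.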
